A study of Homo sapiens with 9 samples.

Results

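YOD1, MST1R, C1QTNF2, CD83, MPZL3 and PLSCR4 are 6 of the 60671 genes counted by RNA sequencing in C28/I2, a human chondrocyte line that was immortalised for culture. They were chosen because they were among the largest rises in cells carrying a short hairpin RNA (shRNA) against CA2, the gene of carbonic anhydrase 2. The 9 libraries form 3 groups of 3, named CA2 shRNA, Scrambled and Control. The CA2 shRNA cells were transduced with the hairpin. The labels do not say what the Scrambled cells carry or whether Control cells received any vector. All groups share the one cell line, so the measurements concern a single immortalised line and not cartilage. Whether the 3 replicates of a group were separate cultures is not stated, so p-values reflect only how much these samples differed, and that spread may be technical.

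The 6 genes belong to different protein families. YOD1 encodes a deubiquitinase of the ovarian tumour (OTU) domain family that works with the ATPase VCP (p97), which pulls misfolded proteins out of the endoplasmic reticulum for degradation. It also binds TRAF6 and stabilises the ubiquitin ligase ITCH in human cells. MST1R encodes RON, the receptor tyrosine kinase for macrophage-stimulating protein and the closest relative of the hepatocyte growth factor receptor MET. C1QTNF2 encodes a secreted protein with a collagen-like stretch and a globular C1q domain, a relative of adiponectin that has been studied for its metabolic effects in mice. CD83 is a surface protein of the immunoglobulin superfamily, best known as a marker of mature dendritic cells, where it opposes the removal of class II major histocompatibility molecules and CD86 by a ubiquitin ligase of the MARCH family. MPZL3 encodes an immunoglobulin-like membrane protein related to myelin protein zero, and its loss causes a hair and skin phenotype in mice. PLSCR4 belongs to the phospholipid scramblase family, membrane proteins named for moving lipids between the leaflets of a bilayer.

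The promoter windows are shown because they are the stretches next to the start sites of genes that were high together. RefSeq holds windows for 5 of the 6 genes, YOD1, MST1R, C1QTNF2, CD83 and PLSCR4, each running from 250 bases before to 50 after a start site (GRCh38.p14). CD83 and PLSCR4 have 2 windows each, which makes 7 windows in all. Both strands were searched for the letters of 9 motifs: AP-1 (TGANTCA), the cyclic AMP response element (TGACGTCA), the E-box (CACGTG), the interferon-stimulated response element (GAAANNGAA), STAT (TTCNNNGAA), TEAD (GGAATG), the GC box (GGGCGG), the TATA box (TATAAA) and the kappa B motif. The 4 windows printed here are those that matched a motif other than the GC and TATA boxes, and the capitals mark every match except GC boxes. All 4 are written 5′ to 3′ on the strand of the gene. The YOD1 window is chr1:207051159-207051458 (minus strand), the C1QTNF2 window is chr5:160370577-160370876 (minus), the CD83 window is chr6:14117522-14117821 (plus) and the PLSCR4 window is chr3:146251056-146251355 (minus).
YOD1: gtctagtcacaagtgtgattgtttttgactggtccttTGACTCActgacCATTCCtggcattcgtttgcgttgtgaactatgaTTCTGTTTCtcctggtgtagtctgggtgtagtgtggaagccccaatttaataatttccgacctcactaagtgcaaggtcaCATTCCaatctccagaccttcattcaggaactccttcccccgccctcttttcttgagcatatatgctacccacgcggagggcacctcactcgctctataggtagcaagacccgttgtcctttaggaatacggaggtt
C1QTNF2: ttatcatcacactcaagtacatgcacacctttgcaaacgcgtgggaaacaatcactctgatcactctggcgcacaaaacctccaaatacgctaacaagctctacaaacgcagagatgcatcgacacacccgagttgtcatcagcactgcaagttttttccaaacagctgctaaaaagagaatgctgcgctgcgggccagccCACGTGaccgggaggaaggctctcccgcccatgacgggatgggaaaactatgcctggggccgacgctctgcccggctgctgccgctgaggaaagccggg
CD83: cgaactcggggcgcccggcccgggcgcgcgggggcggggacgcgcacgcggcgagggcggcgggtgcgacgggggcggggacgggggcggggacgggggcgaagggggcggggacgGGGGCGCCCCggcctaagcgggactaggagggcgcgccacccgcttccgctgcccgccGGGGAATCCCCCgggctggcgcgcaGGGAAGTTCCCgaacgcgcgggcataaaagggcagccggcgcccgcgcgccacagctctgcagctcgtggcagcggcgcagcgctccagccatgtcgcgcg
PLSCR4: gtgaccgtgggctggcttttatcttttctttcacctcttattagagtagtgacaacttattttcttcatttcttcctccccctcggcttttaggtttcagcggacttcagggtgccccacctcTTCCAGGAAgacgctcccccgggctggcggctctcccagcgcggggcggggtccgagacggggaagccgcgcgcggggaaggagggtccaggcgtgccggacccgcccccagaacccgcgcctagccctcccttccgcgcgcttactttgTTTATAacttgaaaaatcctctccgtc

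The windows shared little apart from GC boxes, which all 5 genes held in at least 1 window. Only 1 of the 2 CD83 windows held them, and the share over the 35116 RefSeq windows, 45%, is per window. The GC content of the windows ran from 37% to 81.3%, both in CD83, and the median over all RefSeq windows was 58.7%. The YOD1 window matched AP-1 at -213, counted from the start site, TEAD at -201 and -87 and the interferon-stimulated response element at -167. These letters occur in 7.71%, 14% and 8.11% of all windows. The C1QTNF2 window matched the E-box at -49, a motif of 7.26% of windows. The CD83 window held kappa B letters at -134, at -76 to -74 and at -51 to -50, where matches overlap each other, and 11.3% of all windows hold at least 1 such match. The PLSCR4 window matched STAT at -127 (7.66% of windows) and the TATA box at 24 (11.5%), and the other CD83 window matched the TATA box at -243 and -236. MST1R held no match other than 5 GC boxes, and no window held the cyclic AMP response element, found in 1.85% of all windows. A match describes letters in these windows and no more.

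Depth ranged from 16994368 to 34261244 counts per library, and 19812 genes passed the filter on low counts, all 6 genes among them. Levels are given as CPM, a gene's count divided by the total of its library in the units the deposited tables use, scaled with TMM factors, which correct for the composition of each library. CA2 itself (ENSG00000104267) had 28, 15 and 30 counts in CA2 shRNA libraries, 41, 53 and 61 in Scrambled and 55, 41 and 66 in Control. Its log2 change was -0.77 against Scrambled (SE 0.231, adjusted p = 0.0276) and -0.86 against Control (SE 0.23, adjusted p = 0.0159). The call against Scrambled was lost in 6 of 18 alternatives, namely without the filter, with DESeq2, and without CA2 shRNA 2 (adjusted p = 0.1), CA2 shRNA 3 (0.109), Scrambled 2 (0.0533) or Scrambled 3 (0.103). Against Control it was lost without CA2 shRNA 2 (0.0665), CA2 shRNA 3 (0.0759) or Control 1 (0.0531). Among the control libraries Control 3 and Scrambled 2 were unlike the rest, with 4.06% and 4.08% of counts from mitochondrial genes against 5.55% to 6.62% in CA2 shRNA and 5.85% to 6.87% in the other Scrambled and Control libraries. Leaving both out kept each of the 6 genes higher in CA2 shRNA, with log2 changes of 0.82 to 1.33 against Scrambled and 0.93 to 1.39 against Control.

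YOD1 (ENSG00000180667) lies on the minus strand of chromosome 1 from 207043849 to 207052980 in the files' GRCh38 gene models. It had 46.5, 41.7 and 46.0 CPM in CA2 shRNA libraries, 15.8, 21.6 and 21.5 CPM in the Scrambled libraries and 21.4, 20.2 and 21.8 CPM in Control. Every CA2 shRNA library stood well above every other library, and the lowest of them was 1.93 times the highest Scrambled one. Counts behind these values were 691 to 1259 in CA2 shRNA, 355 to 634 in Scrambled and 414 to 742 in Control, the highest of the 6 genes. The fitted log2 change was 1.19 against Scrambled (SE 0.10) and 1.08 against Control (SE 0.10), which is 2.28-fold and 2.12-fold.

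MST1R (ENSG00000164078), on the minus strand of chromosome 3 from 49887002 to 49903873, had 7.49, 4.47 and 6.43 CPM in CA2 shRNA, 2.89, 2.47 and 2.84 CPM in the Scrambled libraries and 2.56, 2.24 and 2.32 CPM in Control. Its 3 CA2 shRNA libraries were all higher than the other 6 but differed among themselves, with CA2 shRNA 2 lowest. The coefficient of variation of the receptor gene was 25.0% in CA2 shRNA, 8.29% in Scrambled and 7.04% in Control. The log2 change was 1.18 against Scrambled (SE 0.183) and 1.38 against Control (SE 0.186), the highest of the 6 genes in the comparison with Control. The gene shares exon bases with 2 antisense genes, which had 0 to 4 and 0 to 9 counts per library, and without a stated strand setting reads of these bases cannot be assigned.

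C1QTNF2 (ENSG00000145861), the secreted adiponectin relative, lies on the minus strand of chromosome 5 from 160347754 to 160370641. It had 6.14, 5.97 and 4.94 CPM in CA2 shRNA, 2.89, 2.40 and 2.27 CPM in the Scrambled libraries and 2.14, 2.39 and 2.32 CPM in Control. The groups did not overlap between CA2 shRNA and the controls, while the Scrambled and Control libraries interleaved. The log2 change was 1.17 against Scrambled (SE 0.166) and 1.31 against Control (SE 0.168), from 99 to 135 counts in CA2 shRNA, 65 to 67 in Scrambled and 49 to 79 in Control.

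CD83 (ENSG00000112149) occupies 14117256 to 14136918 of chromosome 6, plus strand. It measured 8.68, 10.8 and 10.4 CPM in CA2 shRNA, 4.18, 5.28 and 3.89 CPM in the Scrambled libraries and 5.76, 4.88 and 5.22 CPM in Control. All 3 CA2 shRNA libraries were above all 6 others, and CA2 shRNA 1 came closest, at 1.51 times the highest Control library. The log2 change was 1.16 against Scrambled (SE 0.142) and 0.91 against Control (SE 0.14), the smallest of the 6 changes against Control.

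MPZL3 (ENSG00000160588), on the minus strand of chromosome 11 from 118226690 to 118252365, had 17.97, 16.6 and 19.6 CPM in CA2 shRNA, 8.17, 8.86 and 8.26 CPM in the Scrambled libraries and 8.61, 10.1 and 8.07 CPM in Control. Each CA2 shRNA library was at least 1.65 times the highest Control library, which was Control 2. The log2 change was 1.10 against Scrambled (SE 0.107) and 1.03 against Control (SE 0.107), so the change of this gene was nearly the same size in both comparisons.

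PLSCR4 (ENSG00000114698), on the minus strand of chromosome 3 from 146192335 to 146251179, had 3.54, 2.59 and 3.55 CPM in CA2 shRNA, 1.69, 1.92 and 2.03 CPM in the Scrambled libraries and 1.43, 1.17 and 1.56 CPM in Control. The 3 groups formed separate bands, with Scrambled between CA2 shRNA and Control. These values rest on few reads, 43 to 97 counts in CA2 shRNA, 38 to 60 in Scrambled and 24 to 53 in Control. The scramblase gene had a log2 change of 0.79 against Scrambled (SE 0.203) and 1.21 against Control (SE 0.211).

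**Figure D1:**
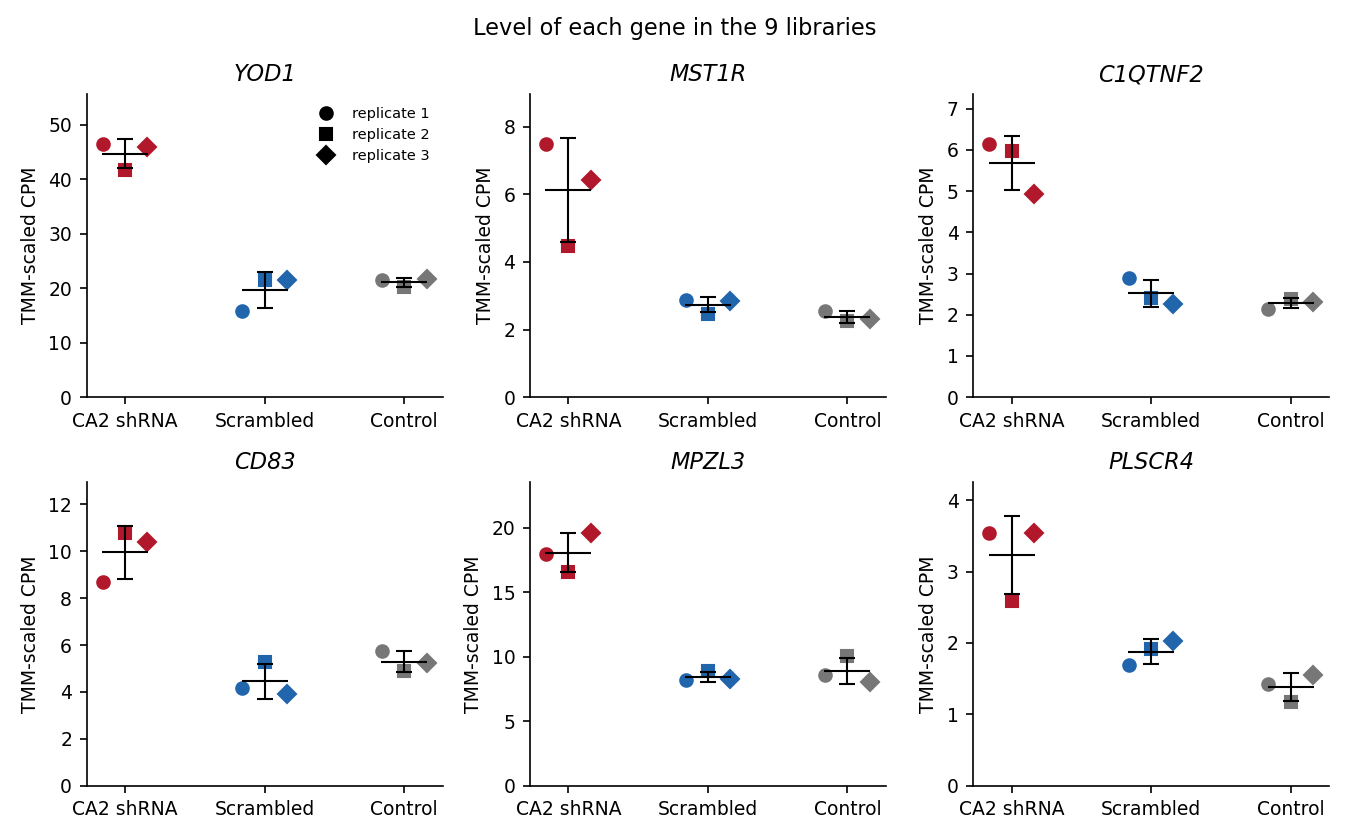
TMM-scaled CPM (y axis, from 0) of each gene in the CA2 shRNA, Scrambled and Control libraries (x axis), with 1 point per library shaped by replicate number; the black line and bar give the mean and SD of 3 libraries. In every panel the 3 CA2 shRNA points lie above the 6 others, and for PLSCR4 the Scrambled points also lie above the Control points.

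Since the genes were selected on these changes, no test is given for them, and their separation is a description. That all 3 CA2 shRNA libraries exceeded all 6 control libraries was also the case for 11.7% of all genes tested, 2313 of 19812. Among 12148 protein-coding genes with a mean of at least 2 CPM, the 6 genes ranked 5 (YOD1), 6 (MST1R), 7 (C1QTNF2), 8 (CD83), 10 (MPZL3) and 55 (PLSCR4) by log2 change against Scrambled. Against Control they ranked 10, 4, 5, 27, 12 and 6 in the same order of genes. The mean covers all 9 libraries, so the CA2 shRNA values help a gene pass this cut. PLSCR4 passed it with means of only 1.879 CPM in Scrambled and 1.385 in Control. Among all 19812 genes tested, noncoding ones and lower levels included, the ranks against Scrambled were 31, 32, 34, 36, 42 and 163. The ranks against Control were 62, 20, 26, 124, 71 and 34. Genes next to them in the ranking of coding genes against Scrambled that are not among the 6 were FRZB at 1.33, SEMA3A at 1.12 and GPAT3 at 1.10. The changes of the 6 genes against Scrambled spanned 0.40 on the log2 scale from PLSCR4 to YOD1, while single standard errors ran up to 0.203.

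The choice of genes did not set Scrambled and Control against each other, but both serve in its comparisons. None of the 6 genes was called between them, and the change of PLSCR4 was the largest in size. The log2 change of Scrambled against Control was -0.11 for YOD1 (SE 0.102), 0.20 for MST1R (SE 0.197), 0.13 for C1QTNF2 (SE 0.178) and -0.07 for MPZL3 (SE 0.111). CD83 had the lowest value, -0.25 (SE 0.147, unadjusted p = 0.108), and PLSCR4 the highest, 0.43 (SE 0.219, unadjusted p = 0.0669). That of PLSCR4 ranked 27 among 12148 coding genes with a mean of at least 2 CPM, and 1046 among all genes tested. The adjusted p was 1 for each of the 6 genes. PLSCR4 was the only one of them with every Scrambled library above every Control library, as was the case for 3.66% of all genes tested. Over all genes 0% were called between Scrambled and Control, with 550 at an unadjusted p under 0.05 and 1 call with DESeq2. Some control libraries were closer across the labels than within them. The chi-square per gene was 3.38 between Scrambled 2 and Control 3 and 3.59 between Scrambled 3 and Control 1. Within a group the lowest was 4.16, and Scrambled 1 and Scrambled 2 had 16.99. With such spread inside the groups, a lack of calls does not show that Scrambled and Control were alike.

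**Figure D2:**
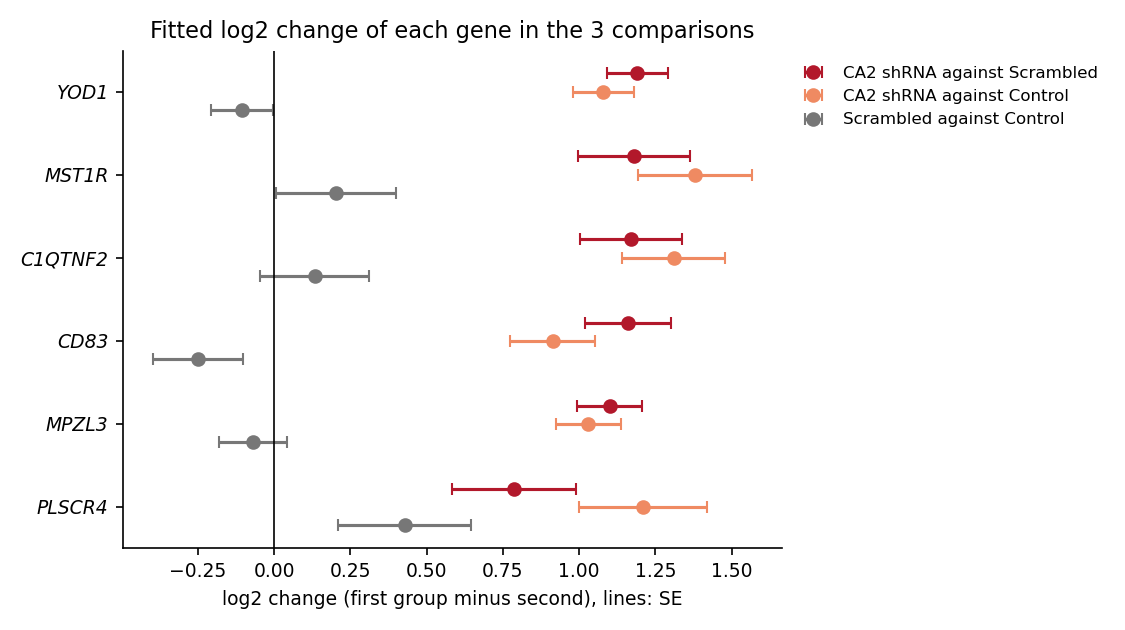
Fitted log2 change (x axis, first group minus second, lines give the SE) of each gene (y axis), with red points for CA2 shRNA against Scrambled, orange points for CA2 shRNA against Control and grey points for Scrambled set against Control. The CA2 shRNA comparisons lie between 0.79 and 1.38, and the comparison of Scrambled with Control lies between -0.25 and 0.43.

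Levels between the genes can be compared only per length, for which the deposited RPKM, the CPM divided by the exon length in kilobases, was used. YOD1 had the highest level, with a mean of 6.84 ± 0.524 RPKM in CA2 shRNA, 3.01 ± 0.501 in Scrambled and 3.23 ± 0.142 in Control (SD, n = 3 each). MPZL3 followed with 4.52 ± 0.459 RPKM in CA2 shRNA, 2.12 ± 0.0937 in Scrambled and 2.23 ± 0.246 in Control, and CD83 with 4.16 ± 0.439, 1.87 ± 0.310 and 2.21 ± 0.201 RPKM in the same groups. These neighbours in the order, MPZL3 and CD83, did not differ beyond their spread in any group. C1QTNF2 had 2.35 ± 0.251 RPKM in CA2 shRNA, 1.05 ± 0.141 in Scrambled and 0.943 ± 0.0461 in Control. MST1R had 1.17 ± 0.307 RPKM in CA2 shRNA, 0.522 ± 0.0437 in Scrambled and 0.451 ± 0.0349 in Control. PLSCR4 was lowest, with 0.762 ± 0.142 RPKM in CA2 shRNA, 0.445 ± 0.0395 in Scrambled and 0.326 ± 0.0472 in Control, and in CA2 shRNA and Scrambled its spread overlapped that of MST1R. The order of the means was the same in all 3 groups. Among 14088 coding genes tested, 59.0% had a lower mean RPKM than YOD1 in CA2 shRNA, 39.8% in Scrambled and 41.4% in Control, while for PLSCR4 these shares were 18.9%, 12.5% and 10.1%.

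The transcripts differed in build. The longest coding models of GENCODE 29 encode 348 residues for YOD1, 1400 for MST1R, 330 for C1QTNF2, 205 for CD83, 235 for MPZL3 and 329 for PLSCR4. Their 3′ untranslated regions measured 5171 bases for YOD1, 3204 for MPZL3, 2072 for PLSCR4, 1682 for CD83, 1417 for C1QTNF2 and 305 for MST1R, against a median of 956 over 14082 coding genes. The pentamer ATTTA, the core of AU-rich elements that RNA-binding proteins recognise, occurred 16 times in YOD1, 7 in MPZL3, 5 in PLSCR4, 4 in CD83, 2 in C1QTNF2 and once in MST1R. At least 1 was present in 65.1% of coding genes, and longer regions hold more of them. Per kilobase the counts ran from 1.41 in C1QTNF2 to 3.28 in MST1R, around the 2.21 over all coding genes.

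The pathway of each gene was followed through a list of its partners, relatives and regulators, 159 genes in all, of which 132 were tested. Against Scrambled 26 of the 132 rose (19.7%) and 13 fell (9.85%), where 8.02% of all genes tested rose and 8.88% fell. Against Control 22 rose (16.7%) and 14 fell (10.6%), where 6.41% of all genes rose and 8.26% fell. These shares are not like for like. The lists were drawn up with earlier results of these data known. They name protein-coding genes, while 14088 of the 19812 genes tested are coding, and the levels were not matched. Passing in both comparisons, which share the CA2 shRNA libraries, were 21 rises and 11 falls. The median log2 change of the listed genes was 0.06 against Scrambled and 0.06 against Control, and that of all genes -0.03 and -0.005. The number of listed genes called lay between 28 and 46 against Scrambled and between 26 and 46 against Control when single libraries were left out.

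**Figure D3:**
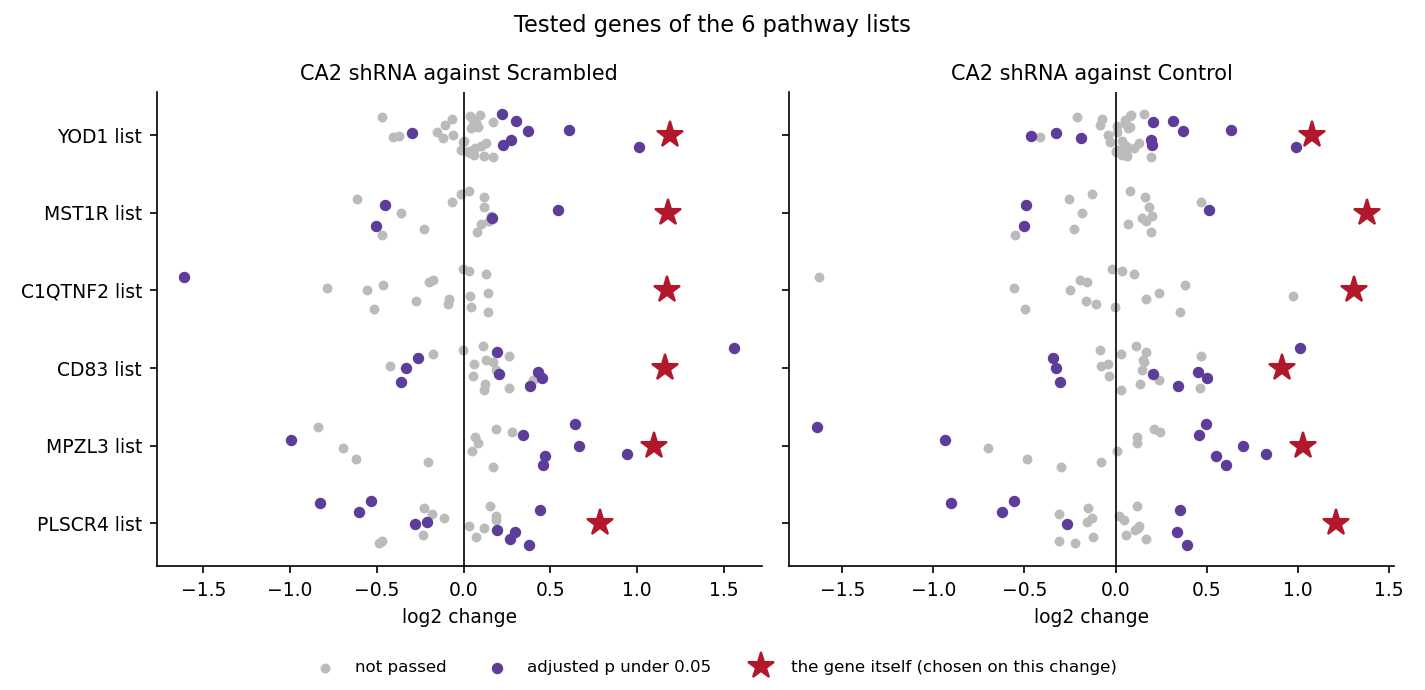
Log2 change (x axis) of every tested gene of the 6 pathway lists (rows) for CA2 shRNA against Scrambled (left) and against Control (right); purple points passed an adjusted p of 0.05, grey points did not, and the star is the gene the list is named for, which was chosen on this change. Most listed genes lie near 0, and the stars lie to the right of nearly all of them.

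For YOD1, 7 of 36 tested genes rose (19.4%, all genes 8.02%) and 1 fell (2.78%, all genes 8.88%) against Scrambled. Set against Control, 7 rose (19.4%, all genes 6.41%) and 3 fell (8.33%, all genes 8.26%). Most movement was among the other OTU deubiquitinases. TNFAIP3 (A20), which restrains nuclear factor kappa B signalling, had 38.7 ± 1.85 CPM in CA2 shRNA, 19.2 ± 0.267 in Scrambled and 19.5 ± 0.219 in Control (SD, n = 3 each), and rose by a log2 change of 1.01 against Scrambled (SE 0.072, adjusted p = 2.71e-08) and 0.99 against Control (adjusted p = 3.35e-08). OTUB2 rose to 5.37 CPM in CA2 shRNA, against 3.51 in Scrambled and 3.45 in Control, and OTUD1 to 21.2 CPM, against 16.4 in both control groups. OTULIN, which cleaves linear ubiquitin chains, rose by 0.27 against Scrambled (adjusted p = 0.0045) and 0.20 against Control (adjusted p = 0.0383). OTUD4 fell by 0.30 and 0.33 on the log2 scale against Scrambled and Control (adjusted p = 0.00804 and 0.00394).

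Of the degradation machinery that YOD1 works with, few genes moved. VCP itself had 367.1 CPM in CA2 shRNA, 351.7 in Scrambled and 358.2 in Control (adjusted p = 0.517 and 0.767), and of VCP and its 9 tested cofactors 1 rose, FAF2, by 0.30 and 0.31 (adjusted p = 0.00167 and 0.00125). Of the signalling partners, SQSTM1 (p62) rose by 0.23 and 0.20 (adjusted p = 0.022 and 0.0464), while ITCH had 139.5 CPM in CA2 shRNA, 132.6 in Scrambled and 134.5 in Control and TRAF6 had 22.9, 21.9 and 21.3 CPM in these groups. Single libraries decided some of these calls. OTULIN against Control was lost without CA2 shRNA 2 or 3, Scrambled 3 or any one Control library (adjusted p up to 0.151). SQSTM1 was lost against Scrambled without CA2 shRNA 2 or Scrambled 3, and against Control in 7 of 18 alternatives (up to 0.281). OTUD1 was lost without CA2 shRNA 2, and against one of the controls without Scrambled 1 or Control 1, and OTUB2 against Scrambled without CA2 shRNA 2 (0.0566).

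For the receptor MST1R, 2 of 17 tested genes rose (11.8%, all genes 8.02%) and 2 fell (11.8%, all genes 8.88%) against Scrambled. With Control as the reference, 1 rose (5.88%, all genes 6.41%) and 2 fell (11.8%, all genes 8.26%). Its relative MET had 233.5 ± 10.9 CPM in CA2 shRNA, 159.9 ± 16.9 in Scrambled and 163.8 ± 4.94 in Control. MET rose by 0.55 on the log2 scale (SE 0.0678, adjusted p = 1.79e-05) and 0.51 (adjusted p = 3.6e-05). HYAL2, a membrane hyaluronidase reported to hold RON in check, fell to 27.4 CPM in CA2 shRNA, against 37.4 in Scrambled and 38.5 in Control (log2 change -0.45 and -0.49, adjusted p = 0.000524 and 0.00023). The adaptor SHC1 fell to 154 CPM, against 218.4 in Scrambled and 218.2 in Control (-0.50 in both, adjusted p = 5.68e-06 and 5.43e-06). None of the 5 tested ligand genes and activators passed, and MST1, the gene of macrophage-stimulating protein, had 13 ± 1.13 CPM in CA2 shRNA, 16.8 ± 5.14 in Scrambled and 14.9 ± 3.79 in Control (adjusted p = 0.428 and 0.744). Without Scrambled 2, MST1 was called lower against Scrambled (log2 change -0.57, adjusted p = 0.0467). Without both Control 3 and Scrambled 2 it was called lower against Scrambled (-0.57, adjusted p = 0.00048) and against Control (-0.34, adjusted p = 0.0443).

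For C1QTNF2, 0 of 17 tested genes rose in either comparison, where 8.02% of all genes rose against Scrambled and 6.41% against Control. C1QL3 fell against Scrambled (log2 change -1.61, adjusted p = 0.0494) and had a change of -1.63 against Control (adjusted p = 0.0527), at a mean of 0.204 CPM in CA2 shRNA, 0.658 in Scrambled and 0.664 in Control. It is named because it was the single call, and that call was lost in 10 of the 16 alternatives that tested it, while against Control it passed in 5 of 16. The relatives with the highest level were C1QTNF6, with 35.2 CPM in CA2 shRNA, 31.8 in Scrambled and 29.8 in Control (adjusted p = 0.266 and 0.0588, the second passing in 7 of 18 alternatives, with the replicate block at 0.0444 and without Scrambled 2 at 0.0137 among them), and C1QL1, with 287.9, 263.1 and 268.6 CPM in these groups (adjusted p = 0.233 and 0.411). The adiponectin receptor ADIPOR1 had 200.6 ± 13.1 CPM in CA2 shRNA, 200.9 ± 7.67 in Scrambled and 203.5 ± 7.97 in Control (adjusted p = 0.982 and 0.87).

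For CD83, 6 of 23 tested genes rose (26.1%, all genes 8.02%) and 3 fell (13%, all genes 8.88%) against Scrambled. Set against Control, 5 rose (21.7%, all genes 6.41%) and 3 fell (13%, all genes 8.26%). The nuclear factor kappa B group held most of the rises, 4 of 8 genes in each comparison. NFKB2 had 164.1 ± 7.23 CPM in CA2 shRNA, 121.7 ± 8.33 in Scrambled and 119.8 ± 1.22 in Control, a rise of 0.43 (adjusted p = 4.82e-05) and 0.45 (adjusted p = 2.89e-05). RELB, its usual dimer partner, rose to 43.3 CPM in CA2 shRNA, against 33.2 in Scrambled and 34.1 in Control (adjusted p = 0.0022 and 0.00528). The inhibitor genes NFKBIE and NFKBIA rose by 0.45 and 0.20 against Scrambled (adjusted p = 0.00479 and 0.0243) and by 0.50 and 0.20 against Control (0.00228 and 0.0263). The subunit gene REL fell by 0.36 and 0.31 on the log2 scale (adjusted p = 0.00897 and 0.0257).

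CD86 and HLA-DRA had low levels in this line. CD86, whose removal CD83 opposes in dendritic cells, had 0 CPM in CA2 shRNA, 0.0123 in Scrambled and 0.014 in Control and was not tested, and HLA-DRA stayed at or below 0.188 CPM as a mean of any group. Other genes listed with them had higher levels and gave no call in either comparison. HLA-DMA had 3.02 CPM in CA2 shRNA, 2.81 in Scrambled and 2.78 in Control. In the same groups CD74 had 2.00, 2.28 and 1.97 CPM, and CIITA 5.76, 4.78 and 4.18 CPM. MARCHF8, a ligase that removes class II proteins and CD86, fell to 57.6 CPM in CA2 shRNA, against 72.5 in Scrambled and 72.1 in Control (adjusted p = 0.0021 and 0.00261). MARCHF1, the other MARCH ligase listed, had 1.35 CPM in CA2 shRNA, 1.84 in Scrambled and 1.47 in Control (adjusted p = 0.351 and 0.912). CD274 (PD-L1) rose to 1.72 CPM in CA2 shRNA, against 0.578 in Scrambled and 0.828 in Control (log2 change 1.56 and 1.01, adjusted p = 0.0014 and 0.0216). Other listed surface proteins had higher levels. CD276 had 167.3 CPM in CA2 shRNA, 167.3 in Scrambled and 177.1 in Control. CD40 had 85.7, 74.9 and 76.3 CPM in these groups (adjusted p = 0.0317 and 0.0703). The CD40 call against Scrambled was lost in 6 of 18 alternatives, and against Control it passed in 3. ELAVL1 (HuR), which binds CD83 mRNA and takes part in its export, fell to 141.3 CPM, against 169.6 in Scrambled and 178.9 in Control (adjusted p = 0.0019 and 0.000189). CD274 against Control was lost in 4 alternatives (without CA2 shRNA 2, CA2 shRNA 3, Control 1 or Control 2, adjusted p up to 0.0829). NFKBIA was lost in 4 alternatives in each comparison (CA2 shRNA 2 or 3 in both, Scrambled 3 or Control 2 against Scrambled, Control 1 or 2 against Control). REL was lost without CA2 shRNA 1 in both comparisons, without Scrambled 3 against Scrambled, and without CA2 shRNA 3, Control 1 or Control 3 against Control (up to 0.155).

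CD83 is a marker of dendritic cells, so markers of immune cells were read beside it. The immune marker genes summed to 23.2 to 25.8 CPM in CA2 shRNA, 15.9 to 20.4 in Scrambled and 17.7 to 20.1 in Control. Of the 12 markers, PTPRC (CD45), shared by leukocytes, had 0 to 4 counts per library, and CD1C and MS4A1 had none. Others were present in every library, with 163 to 317 counts of ITGAX (CD11c), 17 to 58 of CD14 and 16 to 47 of CSF1R. ITGAX, an integrin of dendritic and myeloid cells, was the largest share of the sum, at 11.5 ± 0.590 CPM in CA2 shRNA, 9.36 ± 1.86 in Scrambled and 8.45 ± 1.61 in Control (log2 change 0.30 and 0.45, adjusted p = 0.2 and 0.0582). Against Control, ITGAX passed in 8 of 18 alternatives, DESeq2 and the replicate block (adjusted p = 0.0203) among them. Of the 5 marker genes tested, 1 rose in both comparisons, LAMP3, a lysosomal protein of mature dendritic cells. LAMP3 had 8.94 ± 0.599 CPM in CA2 shRNA, 5 ± 0.0856 in Scrambled and 6.08 ± 0.831 in Control (log2 change 0.83 and 0.54, adjusted p = 0.000178 and 0.0065). Other markers of the list moved either way without a call. CD14 changed by -0.57 and -0.20, CSF1R by 0.002 and -0.32 and CD68 by 0.89 and 0.50. CCR7, which was not tested, had 0.282 CPM in CA2 shRNA, 0.348 in Scrambled and 0.446 in Control. Epithelial markers, read beside MPZL3 and MST1R, summed to 4.53 to 5.14 CPM in CA2 shRNA, 5.14 to 5.95 in Scrambled and 4.92 to 6.15 in Control. In bulk libraries a change in the number of cells of a type and a change in RNA per cell cannot be told apart. Of the chondrocyte markers, SOX9 had 1744 to 3307 counts per library, COL2A1 24 to 70 and ACAN 11 to 36, while COL9A1 had none and COL11A1 and HAPLN1 at most 1. The summed chondrocyte markers were 124.2 to 127.2 CPM in CA2 shRNA, 110.7 to 116.9 in Scrambled and 105.4 to 119.3 in Control, a sum made up mostly of SOX9. SOX9 rose by 0.20 and 0.21 on the log2 scale (adjusted p = 0.0364 and 0.0381), while COMP, a cartilage matrix protein, fell to 1.35 CPM in CA2 shRNA, against 2.49 in Scrambled and 2.42 in Control (log2 change -0.86 and -0.83, adjusted p = 0.0161 and 0.0215). Both calls depended on single libraries. SOX9 was lost without CA2 shRNA 1, CA2 shRNA 2, Scrambled 3 or Control 2 and, in one of the comparisons, without Scrambled 1 or Control 1 or with upper-quartile factors (adjusted p up to 0.19). In both comparisons COMP was lost without CA2 shRNA 2, and against Control also without CA2 shRNA 3, Control 1 or Control 3 (up to 0.0908). The part of these markers in the 6 changes was not tested.

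For MPZL3, 6 of 17 tested genes rose (35.3%, all genes 8.02%) and 1 fell (5.88%, all genes 8.88%) against Scrambled. With Control as the reference, 6 rose (35.3%, all genes 6.41%) and 2 fell (11.8%, all genes 8.26%). MPZL2, a homologue that mediates adhesion in epithelia, had 6.25 ± 0.898 CPM in CA2 shRNA, 3.27 ± 0.249 in Scrambled and 3.55 ± 0.545 in Control (log2 change 0.94 and 0.83, adjusted p = 0.000507 and 0.00157). The adhesion receptor CXADR rose to 13.7 CPM in CA2 shRNA, against 8.76 in Scrambled and 9.65 in Control (adjusted p = 0.00158 and 0.0106). JAM2, a junctional adhesion molecule, fell to 1.69 CPM in CA2 shRNA, against 3.35 in Scrambled and 3.21 in Control (log2 change -0.99 and -0.94, adjusted p = 0.00284 and 0.00492). MPZL1, another homologue, had 173.3 CPM in CA2 shRNA, 167.8 in Scrambled and 172.1 in Control (adjusted p = 0.663 and 0.948).

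FDXR, the mitochondrial ferredoxin reductase reported to bind MPZL3, rose to 24.6 ± 2.78 CPM in CA2 shRNA, against 19.4 ± 0.917 in Scrambled and 17.9 ± 0.796 in Control (adjusted p = 0.0128 and 0.00164). KLF4, a transcription factor of skin barrier formation, rose to 6.90 CPM, against 4.33 in Scrambled and 4.21 in Control (log2 change 0.67 and 0.70, adjusted p = 0.00177 and 0.00122). Against Scrambled, FDXR was lost without CA2 shRNA 2, CA2 shRNA 3 or Scrambled 3 (adjusted p up to 0.0765). CXADR against Control was lost without Control 1 or Control 2 (up to 0.0584).

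For PLSCR4, 5 of 22 tested genes rose (22.7%, all genes 8.02%) and 5 fell (22.7%, all genes 8.88%) against Scrambled. Set against Control, 3 rose (13.6%, all genes 6.41%) and 4 fell (18.2%, all genes 8.26%). In its own family, PLSCR1 rose to 43.9 ± 2.25 CPM in CA2 shRNA, against 35.8 ± 1.002 in Scrambled and 34.8 ± 1.22 in Control (log2 change 0.30 and 0.34, adjusted p = 0.00521 and 0.00193), while PLSCR3 had 1.72, 2.04 and 1.70 CPM in these groups. ANO6, the calcium-activated scramblase of the plasma membrane, fell to 126.9 ± 7.98 CPM in CA2 shRNA, against 225.7 ± 19.2 in Scrambled and 237.3 ± 9.72 in Control (log2 change -0.83 and -0.90, adjusted p = 1.02e-07 and 3.72e-08). Its relative ANO5 fell by 0.54 and 0.56, and XKR8, a scramblase switched on by caspases, rose by 0.38 and 0.39 (adjusted p = 0.00593 and 0.00468). Of the flippases, which move lipids inward, ATP11A fell to 82.3 CPM in CA2 shRNA, against 124.9 in Scrambled and 126.6 in Control (adjusted p = 1.35e-06 and 9.33e-07). ATP9A fell by 0.28 and 0.27, and ATP10D rose by 0.44 and 0.36 (adjusted p = 0.00266 and 0.0133). Against Control, ATP10D was lost without CA2 shRNA 2, Control 1 or Control 2 (up to 0.0752), and ATP9A without CA2 shRNA 1 (0.0545).

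The position of the genes was examined next. The 2 nearest tested coding genes on each side of each gene gave 24 neighbours. Of these 4 rose (16.7%) and 4 fell (16.7%) against Scrambled, where 8.02% and 8.88% of all genes rose and fell. Against Control 4 rose (16.7%) and 3 fell (12.5%), where 6.41% and 8.26% of all genes rose and fell. The neighbours are all coding genes, while all genes tested include noncoding ones. The rising neighbours MPZL2, SCN4B and PLSCR1 were also counted among the rises of the pathway lists. The nearest pair of rises was MPZL3 and its homologue MPZL2, which lie 1.051 kb apart on the same strand of chromosome 11, and SCN4B, 73.8 kb away, also rose (log2 change 0.46 and 0.61, adjusted p = 0.0243 and 0.00448). CCNJL, a cyclin gene 2.358 kb from C1QTNF2, rose to 31.2 ± 3.40 CPM in CA2 shRNA, against 21.97 ± 0.840 in Scrambled and 22.1 ± 1.60 in Control (adjusted p = 0.000571 and 0.000719). PLSCR1 is the next tested coding gene beyond PLSCR4, 264 kb away. The SCN4B call against Scrambled was lost without CA2 shRNA 1, CA2 shRNA 2 or Scrambled 3 (adjusted p up to 0.0958).

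Other neighbours moved the opposite way. PFKFB2, a gene of fructose bisphosphate metabolism on the plus strand, spans the whole of YOD1, and 315 exon bases, 4.83% of the YOD1 exon length, are shared. PFKFB2 had 17.9 ± 1.70 CPM in CA2 shRNA, 23.4 ± 0.950 in Scrambled and 24.3 ± 0.825 in Control, a fall of 0.39 (adjusted p = 0.00329) and 0.45 (adjusted p = 0.00107). The strand setting of the counting is not given in the sources used here, so reads of the shared bases are uncertain for both genes. CD55, a complement regulator 268.6 kb from YOD1, fell to 123.5 CPM in CA2 shRNA, against 170.8 in Scrambled and 168.2 in Control (adjusted p = 6.61e-05 and 0.000112). JARID2, a cofactor of Polycomb repressive complexes and the next tested coding gene beyond CD83, fell to 28.97 ± 1.19 CPM, against 64.5 ± 0.855 in Scrambled and 63.8 ± 0.716 in Control (log2 change -1.16 and -1.14, adjusted p = 1.28e-09 and 1.13e-09), from 1109 kb away. ZIC4, at 0.234 CPM in CA2 shRNA, 0.687 in Scrambled and 0.568 in Control, fell against Scrambled (log2 change -1.55, adjusted p = 0.0447) and had a change of -1.28 against Control (adjusted p = 0.122). The first call was lost with DESeq2 (0.0711) and without CA2 shRNA 2, CA2 shRNA 3, Scrambled 3 or Control 2 (up to 0.272). Both neighbours of MST1R on each side, TRAIP, CAMKV, MON1A and RBM6, gave no call in either comparison.

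**Figure D4:**
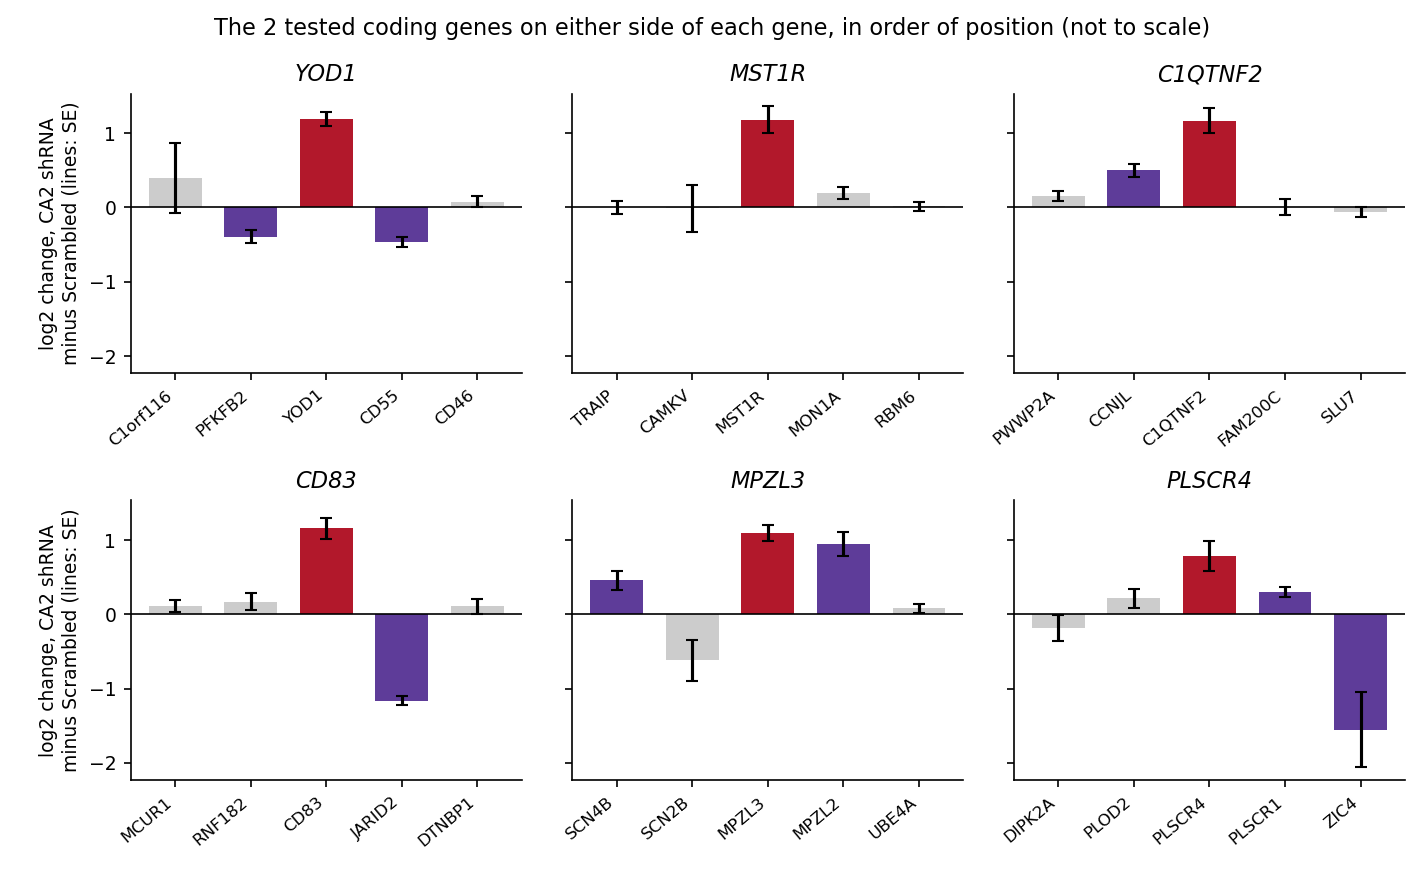
Log2 change of CA2 shRNA minus Scrambled (y axis, lines give the SE) for each gene (red, centre) and the 2 tested coding genes on either side (x axis, in order of position, not to scale); purple bars passed an adjusted p of 0.05 and grey bars did not. MPZL2 and CCNJL rise beside MPZL3 and C1QTNF2, and JARID2 falls beside CD83.

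The coding genes whose pattern over the 9 libraries was most like that of each gene were sought next. Each pattern holds the step from the controls to CA2 shRNA on which the 6 genes were chosen. Genes with a like rise therefore come out near by construction. Among coding genes with a mean of at least 2 CPM, SEMA3A and KLHL15, named below, ranked 9 and 19 by log2 change against Scrambled. The nearest genes are a description, and shared regulation was not tested. Likeness was measured as the root mean square difference between log2(CPM + 0.5) values centred on each gene's own mean, over coding genes with a mean of at least 2 CPM, where a smaller value is closer. For scale, the root mean square of a gene's own centred values was 0.547 for YOD1, 0.55 for MST1R, 0.527 for C1QTNF2, 0.485 for CD83, 0.490 for MPZL3 and 0.428 for PLSCR4, so the nearest genes to MST1R and PLSCR4 were less close than those to MPZL3. MPZL3 and SEMA3A, a secreted guidance protein, were the closest, at 0.0411. SEMA3A had 12.5 ± 1.37 CPM in CA2 shRNA, 5.79 ± 0.324 in Scrambled and 6.32 ± 0.697 in Control. KLHL15, an adaptor of a ubiquitin ligase, was the nearest gene to YOD1 (0.106) and to MST1R (0.209) and the third nearest to MPZL3 (0.0918), and its level was far higher, at 234.2 ± 8.82 CPM in CA2 shRNA, 117.3 ± 9.52 in Scrambled and 119.9 ± 0.757 in Control. YOD1 was also near NCEH1 (0.155) and DUSP5 (0.157), and MPZL3 near the calcium channel gene ITPR1 (0.0917).

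C1QTNF2 was nearest to the protease inhibitor gene SLPI (0.104), the vitamin D receptor gene VDR (0.139) and STX3 (0.14), and MST1R was also near SLPI (0.212) and SMIM3 (0.216). VDR had 43.7 ± 5.26 CPM in CA2 shRNA, 23.6 ± 1.89 in Scrambled and 22.3 ± 0.951 in Control. CD83 was nearest to the iron exporter gene SLC40A1 (0.102), the hyaluronidase gene CEMIP2 (0.104) and the interleukin 6 receptor gene IL6R (0.108). IL6R had 24.4 ± 1.30 CPM in CA2 shRNA, 12.5 ± 1.13 in Scrambled and 13.6 ± 0.833 in Control. PLSCR4, the gene with Scrambled between the other groups, was nearest to PRDM8 (0.127), which had 6.47 ± 0.218 CPM in CA2 shRNA, 3.61 ± 0.332 in Scrambled and 3.03 ± 0.507 in Control, and then to BIRC3 (0.171) and SLC37A3 (0.192). Among the 6 genes themselves YOD1 and MPZL3 were the closest pair (0.157), and MST1R and CD83 the farthest (0.325). Of the 18 nearest genes, 16 stayed the same with a pseudocount of 1.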

How the data were processed

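Total RNA of C28/I2 cells was prepared with RNeasy Mini and treated with FastSelect, which removes ribosomal RNA, per the labels' protocols. The tools listed, per the submitters' processing notes, are STAR 2.5.1a, featureCounts 1.4.6-p5 and bcl2fastq, with GRCh38 as the build. Not given in the sources used here are the annotation release, the strand setting and the treatment of multiply mapped reads. Each library has 1 deposited table that lists the count, the CPM and the RPKM of 60671 genes, per the file headers, and recomputing CPM and RPKM from the counts gave the deposited values in all 9 tables. The reference table named 60401 gene IDs and GENCODE 29 another 246.

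Counts were the input to every test. Genes were kept by filterByExpr (19812), scaled with TMM (factors 0.977 to 1.012) and fitted in edgeR 4.0.16 with its robust quasi-likelihood F test on all 9 libraries with a term per group, leaving 6 residual degrees of freedom and a biological coefficient of variation of 7.94%. P-values were Benjamini-Hochberg adjusted over all 19812 genes with a threshold of 0.05; "rose", "fell" and "called" refer to it. With 3 libraries a group the smallest p of an exact permutation test is 0.1, and none was run. No 2 libraries of a group agreed within sampling noise (lowest chi-square per gene 4.16). The fit was tested on simulated counts. Intervals and SEs cover the spread between these libraries only.

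Named were the 6 genes, the listed pathway genes that passed both CA2 shRNA comparisons in one direction or, in a role with none, that with the highest RPKM, the neighbours, the 3 closest patterns of each gene, and CA2; others are named to complete a count or a role and were picked with their values seen. Results of some listed genes that this rule takes are not reported here. The 6 genes, the pathway lists and the markers were chosen with earlier results of these data known. Versions were R 4.3.3, limma 3.58.1, DESeq2 1.42.0, Python 3.11.15 and pandas 2.3.3. Alternatives were DESeq2 size factors, upper-quartile factors, library totals, no filter, at least 1 CPM in 3 libraries, DESeq2, only the groups compared, the replicate number as a block, leaving out each library, and leaving out Control 3 and Scrambled 2.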

Additional observations from a re-analysis of the deposited data

How the results depend on the processing

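In 18 alternatives, all 216 log2 changes of the 6 genes in the CA2 shRNA comparisons stayed above 0. Against Scrambled they ranged from 0.71 for PLSCR4 to 1.33 for MST1R and CD83, and against Control from 0.84 for CD83 to 1.53 for MST1R. Single libraries shifted some of these values. C1QTNF2 against Control went from 1.31 (SE 0.168) to 1.43 without CA2 shRNA 3. CD83 against Scrambled went from 1.16 (SE 0.142) to 1.33 without Scrambled 2. Leaving out single libraries gave 2059 to 4011 called genes against Scrambled (3348 with all libraries) and 1962 to 3662 against Control (2906 with all). The lowest count against Scrambled, 2059, came without Scrambled 3. Between Scrambled and Control the count was 0 to 1 over left-out libraries, with 1 call without Scrambled 2, 7 without the filter and 1 with DESeq2. Over left-out libraries, listed pathway genes numbered 28 to 46 against Scrambled and 26 to 46 against Control and neighbours 6 to 8. Over all 18 alternatives the highest were 47 listed genes and 4289 genes against Scrambled, both without Control 3 and Scrambled 2, and 9 neighbours without the filter. The span between the largest and smallest change of the 6 genes was 0.399 to 0.563.

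The replicate block gave 3422 called genes against Scrambled, 2946 against Control and 0 between the controls, 37 and 35 listed pathway genes, 8 neighbours and a span of 0.42. Same-numbered libraries had correlations of -0.185 to 0.105 between their deviations from the group means. Scrambled 2 and Control 3, which bear different numbers, had 0.301. With 3 libraries a group, these values cannot show whether same-numbered libraries shared a culture, a day or a batch. Counts under 100 in a library limit the precision of PLSCR4, MST1R and C1QTNF2, and CD83 had 94 counts in Scrambled 1.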
